A study of Mus musculus with 6 samples.

Results

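The genes described are the nuclear genes of oxidative phosphorylation, compared between liver tumor and normal liver of the mouse. Members were chosen by name alone: every probe whose design name or current gene symbol begins with Nduf, Uqcr or Atp5, or with Cox followed by a digit from 4 to 8, and the genes Sdha, Sdhb, Sdhc, Sdhd and Cyc1. The rule took 99 of the 34741 named genes on the array, carried by 145 of 55681 probes. Of these, 87 encode subunits of complexes I to V, 8 are assembly factors of the Ndufaf series, and 4 (Dmac2, Dmac2l, Emc8 and Ndufa11b) were taken through an older design name or the prefix and are not counted as subunits.

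Both groups consisted of male C3H mice (C3H/HeN) of 74 to 75 weeks from a control group on standard diet and tap water, with no agent given. The 3 normal livers were compared with 3 macroscopic, spontaneous liver tumors that, by the study's methods, carried a Ha-ras mutation. Each RNA sample, labelled with Cy3, was run on a 1-color SurePrint G3 Mouse GE array. The labels do not say whether each sample came from a separate animal, so the p-values below measure the spread between these samples.

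Oxidative phosphorylation takes place at the inner membrane of the mitochondrion. Complex I (NADH dehydrogenase) and complex II (succinate dehydrogenase, also an enzyme of the tricarboxylic acid cycle) pass electrons to coenzyme Q. Complex III passes them on to cytochrome c, and complex IV (cytochrome c oxidase) to oxygen. Complexes I, III and IV pump protons, and complex V (ATP synthase) uses the proton gradient to make ATP. Most subunits are encoded in the nucleus and imported, while a small set is encoded by mitochondrial DNA. Hepatocytes are rich in mitochondria.

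Promoters of the subunit genes are shown first because many of these genes share binding motifs of nuclear respiratory factor 1 (NRF1), of GABP and other ETS factors, and of YY1. RefSeq promoters of GRCm38.p6, running from 250 bases before to 50 bases after each start, were at hand for 70 of the 87 subunit genes and 27025 genes in all. On either strand, the NRF1 motif GCGCANGCG occurred in 28.6% of the subunit promoters and in 7.03% of all promoters. The ETS motif CCGGAAG occurred in 24.3% and 9.93%, the YY1 motif AAGATGGC in 14.3% and 3.19%, and the longer form CAAGATGGC, which contains it, in 8.57% and 1.42%. The estrogen-related receptor motif TCAAGGTCA occurred in 2.86% and 0.466%. At least 1 of the NRF1, ETS and shorter YY1 motifs was present in 39 of the 70 subunit promoters (55.7%) and in 17.8% of all promoters. Subunit promoters had a median GC content of 58.3% and all promoters 52.8%, and the motif shares were not adjusted for it. These matches are a description of letters, not of binding.

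For each complex, the sequence just before the start is shown for the gene with the largest fall among those with a single start and a motif upstream of it, since these were the genes that moved together. A sixth sequence, of Cox7a1, is shown because its mean moved the other way. All are RefSeq GRCm38.p6, written 5′ to 3′ on the strand of the gene and ending at the last base before the start, with motif matches in capitals.
Ndufb6 (chr4:40279422-40279671, minus strand): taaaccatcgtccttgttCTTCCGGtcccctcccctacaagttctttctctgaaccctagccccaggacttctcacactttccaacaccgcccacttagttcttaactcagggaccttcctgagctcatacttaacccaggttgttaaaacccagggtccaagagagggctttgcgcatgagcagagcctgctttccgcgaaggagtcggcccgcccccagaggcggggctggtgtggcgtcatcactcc
Sdha (chr13:74350241-74350390, minus strand): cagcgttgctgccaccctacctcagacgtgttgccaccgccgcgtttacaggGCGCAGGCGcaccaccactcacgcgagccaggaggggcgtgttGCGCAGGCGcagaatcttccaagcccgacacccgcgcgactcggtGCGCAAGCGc
Uqcr11 (chr10:80406822-80406971, minus strand): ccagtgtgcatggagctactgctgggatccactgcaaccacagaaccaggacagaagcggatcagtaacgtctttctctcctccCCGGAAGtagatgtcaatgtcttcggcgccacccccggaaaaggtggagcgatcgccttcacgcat
Cox6b1 (chr7:30626115-30626264, minus strand): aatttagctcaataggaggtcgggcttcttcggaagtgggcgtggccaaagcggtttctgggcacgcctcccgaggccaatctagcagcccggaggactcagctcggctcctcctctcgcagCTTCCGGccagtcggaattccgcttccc
Atp5k (chr5:108434400-108434549, minus strand): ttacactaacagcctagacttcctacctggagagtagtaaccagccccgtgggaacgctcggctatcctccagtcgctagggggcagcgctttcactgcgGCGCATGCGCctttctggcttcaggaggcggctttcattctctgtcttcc
Cox7a1 (chr7:30184021-30184170, plus strand): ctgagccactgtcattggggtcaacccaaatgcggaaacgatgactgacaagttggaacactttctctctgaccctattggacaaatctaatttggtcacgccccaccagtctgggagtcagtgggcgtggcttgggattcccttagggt
The Sdha sequence held 3 NRF1 matches, which began 98, 55 and 10 bases before the start. In Atp5k the capitals are 2 NRF1 matches, one on each strand, over the same palindrome. Ndufb6, Uqcr11 and Cox6b1 each held 1 ETS match, in Ndufb6 and Cox6b1 on the opposite strand. None of the motifs was found in the Cox7a1 sequence. The other sequences were picked for holding a motif, so this difference was set by the choice. Ndufa12, Cox5b and Cox5a fell (log2 fold changes -0.94, -0.74 and -0.73) with none of the motifs in their promoters. Of the 54 subunit genes with a promoter that were called lower, 16 held the NRF1 motif, against 20 of all 70. For the ETS motif the counts were 14 and 17.

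Values below are expression values, which are processed signal intensities divided by the 75th percentile of the array, so that 1 is the signal of a spot at that percentile. Because signal also depends on the probe, each gene is compared only with itself. Probes were tested if either group had them well above background in all 3 samples, and a gene was called at an adjusted p under 0.05 in limma over all tested probes. Normal livers shared one slide and tumors another, so an effect of the slide and one of the tissue cannot be told apart. The percentile signal ranged from 124 to 177 for normal liver and from 171 to 183 for tumor. Local background ranged from 42.0 to 45.0 and from 22.0 to 23.0, and no spot was saturated. In whole tissue, fewer cells of a type and less RNA per cell cannot be told apart.

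Nuclear oxidative phosphorylation genes were lower in the tumors across all 5 complexes, by a moderate amount. Of the 95 members tested, 70 fell and none rose (Atpif1, listed under an older symbol, is described apart), against 21.0% of the 18535 tested genes called lower, 13.1% called higher and 34.2% called in either direction. The median log2 fold change of the members was -0.58 (quartiles -0.68 and -0.37), and that of all genes tested was -0.13. The 70 called genes kept between 52.1% and 77.9% of their mean level in normal liver. No member changed by 2-fold or more by its brightest probe, which stands for the gene. In 84 members all 3 tumors lay below all 3 normal livers, which held for 33.5% of all genes. The members that fell were spread over 19 chromosomes.

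**Figure D1:**
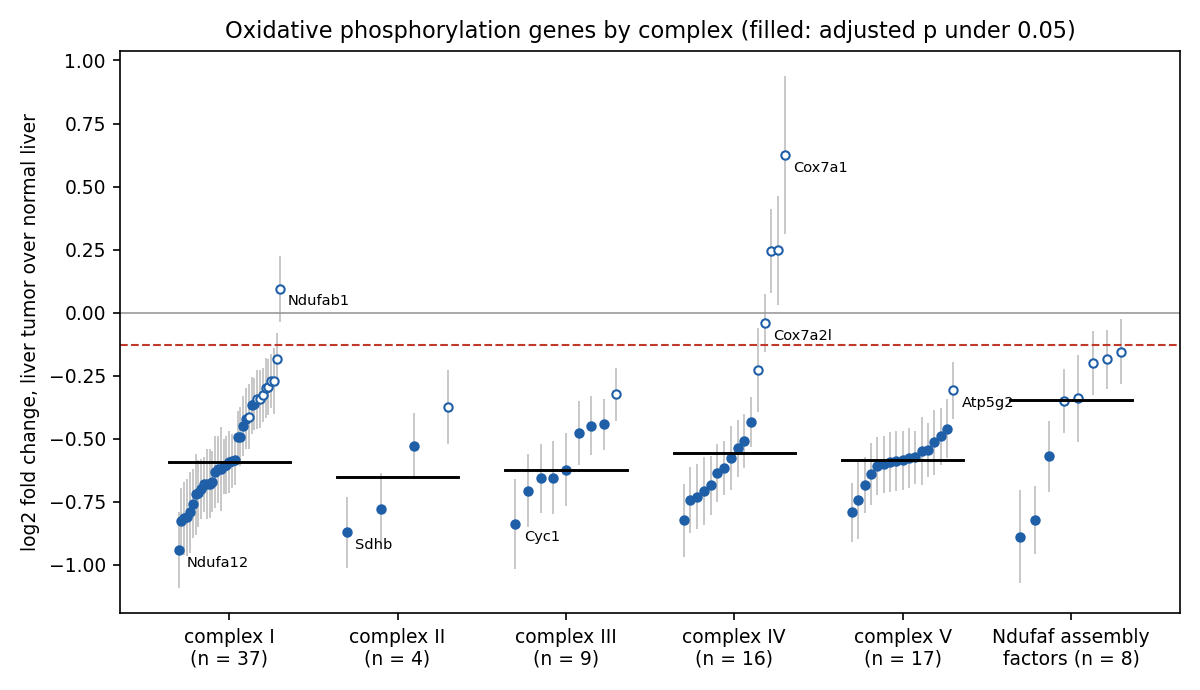
Log2 fold change of liver tumor over normal liver for each tested gene, by complex; error bars are the standard error of the limma fit, filled points have an adjusted p under 0.05, black lines are medians and the dashed red line is the median of all genes tested (-0.13). All filled points lie below 0, and the medians of the 5 complexes lie between -0.65 and -0.56.

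The size of the fall depended on scaling, and so did the calls. When arrays were scaled by their spike-in controls, 85 of 95 members were still below 0, with a median of -0.37 against 0.08 for all genes, but limma called none (17 at an unadjusted p under 0.05, 1 of them higher). With spike-in scaling, 7.63% of all genes were called lower. Without normal liver 2, 38 members (40.0%) were called lower, against 10.8% of all genes. Without a filter on dim probes, 24 (24.2%) were, against 5.43% of all genes.

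The members are bright on these arrays, so other bright genes were set beside them. Among the 2056 tested genes other than members whose mean signal reached the lower quartile of the members, 587 were lower and 243 higher, with a median of -0.12. Among the 71 members above the same signal, 60 were lower and none was higher, with a median of -0.59.

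**Figure D2:**
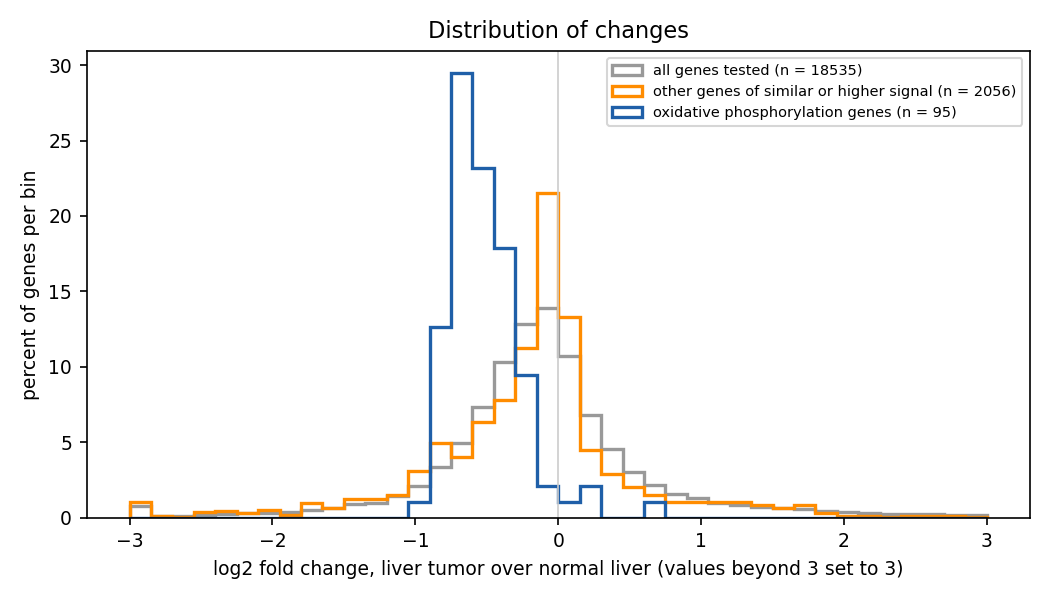
Percent of genes per bin of log2 fold change, liver tumor over normal liver, for the 95 members, the 2056 other genes of similar or higher signal and all 18535 genes tested. The members form a narrow peak between about -1 and 0, while both other distributions peak near 0 and reach far to both sides.

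The tumors also differed among themselves. Relative to the mean of the normal livers, the median of the members was -0.71 in tumor 1, -0.52 in tumor 2 and -0.46 in tumor 3, and ranged from -0.08 to 0.05 in the normal livers. Tumor 1 was the lowest tumor for 84 of the 95 members, against 35.7% of all genes tested. Tumor 3 was the highest for 64, for which the share over all genes was not counted. Every complex followed this order in its median, with complex V nearly level in tumors 2 and 3 (-0.52 in both).

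**Figure D3:**
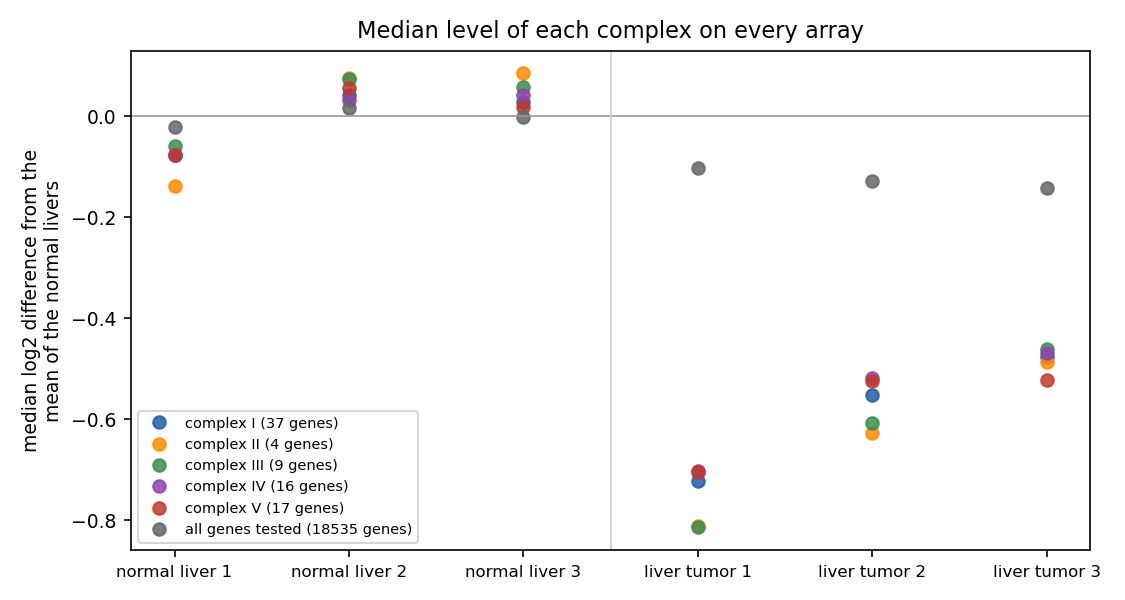
Median log2 difference from the mean of the normal livers on each of the 6 arrays, for the tested genes of each complex and for all genes tested. The 5 complexes lie together on every array, near 0 in the normal livers and lowest in tumor 1, while all genes lie between -0.14 and -0.10 in the tumors.

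Complex I has a catalytic core that carries electrons from NADH, surrounded by accessory subunits that build and stabilise it. Of its 37 subunits 27 fell, with a median of -0.59; 5 of 7 core subunits fell (median -0.63) and 22 of 30 accessory subunits (median -0.59). Without normal liver 2, 15 of the 37 were called, and with no filter on dim probes, 11. The largest fall among all members was that of Ndufa12, an accessory subunit, at 112, 124 and 125 in the normal livers and 51.7, 70.0 and 67.8 in the tumors. The groups were far apart, and the log2 fold change was -0.94 (SE 0.149, limma adjusted p = 0.0058). Ndufb6, an accessory subunit of the membrane arm whose promoter sequence is given above, was at 57.5, 59.6 and 62.6 against 29.2, 35.7 and 37.0 (log2 fold change -0.82, SE 0.129, adjusted p = 0.0055 in limma). Ndufs7, a core subunit that holds an iron-sulfur cluster, was at 141, 129 and 129 against 62.8, 82.3 and 82.9 (-0.82 on the log2 scale, SE 0.144). For both genes even the highest tumor lay well below the lowest normal liver.

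The 10 subunits of complex I that were not called had log2 fold changes between -0.41 and 0.09. Ndufab1, the mitochondrial acyl carrier protein, which also serves fatty acid synthesis, was the only tested member of complex I above 0. Its values were 5.16, 5.87 and 6.35 in the normal livers and 5.57, 6.53 and 6.43 in the tumors, and the groups overlapped (log2 fold change 0.09, SE 0.130).

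Complex II has 4 subunits, all encoded in the nucleus, of which Sdha and Sdhb form the catalytic head and Sdhc and Sdhd the membrane anchor. Of these 3 fell, with a median of -0.65. Sdhb, the iron-sulfur subunit, was at 257, 316 and 319 in the normal livers and 143, 171 and 172 in the tumors (log2 fold change -0.87, SE 0.142, limma adjusted p = 0.0063). Sdha, the flavoprotein, whose promoter sequence held the 3 NRF1 matches, was at 79.4, 91.6 and 91.5 against 46.2, 48.2 and 59.4 (-0.78 on the log2 scale, SE 0.140). Tumor and normal values of both head subunits were well separated.

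The anchor subunits moved less by their brightest probes. Sdhc fell from 39.9, 45.1 and 47.2 to 26.9, 31.8 and 32.9 (log2 fold change -0.53, SE 0.131). Sdhd was at 107, 124 and 120 against 77.6, 89.4 and 105, with tumor 3 just under normal liver 1, and was not called (-0.38, SE 0.146, limma adjusted p = 0.093). A second probe of Sdhc, of similar signal, gave a log2 fold change of -0.66, and a dimmer probe of Sdhb gave -1.06. The difference between head and anchor was not tested.

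In complex III 8 of 9 subunits fell, with a median of -0.62. Cyc1, the cytochrome c1 subunit that hands electrons to cytochrome c, was at 82.9, 73.6 and 83.1 in the normal livers and 36.2, 43.4 and 56.4 in the tumors (log2 fold change -0.84, SE 0.179, limma adjusted p = 0.015). The 3 tumors were spread widely but all lay below the normal livers. Uqcrc2, a core subunit without a redox center, was at 96.2, 112 and 112 against 56.8, 65.0 and 75.4 (log2 fold change -0.71). Uqcrfs1, the Rieske iron-sulfur subunit, was at 94.3, 111 and 107 against 57.6, 66.2 and 74.4 (log2 fold change -0.66). Uqcrh, the hinge protein, was not called, with a log2 fold change of -0.32 (limma adjusted p = 0.056). A second, dimmer probe of Uqcrh was called lower (log2 fold change -0.39, limma adjusted p = 0.027). Without normal liver 2, 1 subunit of complex III was called, and without normal liver 3 or with quantile normalization, 4. With no filter on dim probes 0 were called (5.43% of all genes called lower).

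Complex IV was the most mixed of the complexes, and its list includes isoforms known from other tissues. Of its 20 genes 16 were tested, 11 fell and none rose, with a median of -0.56. All 11 are the forms found in most tissues. Ndufa4, once assigned to complex I and now counted with complex IV, was at 113, 142 and 131 in the normal livers and 62.9, 75.8 and 80.0 in the tumors (log2 fold change -0.82, SE 0.146, limma adjusted p = 0.0083). Cox5b was at 135, 157 and 156 against 78.4, 94.0 and 95.7 (log2 fold change -0.74), and Cox5a at 317, 313 and 336 against 168, 201 and 216 (log2 fold change -0.73). Cox4i1, the general form of subunit 4, was at 377, 358 and 367 against 220, 245 and 255 (log2 fold change -0.62, SE 0.108). In these 4 genes the groups did not overlap. Cox6a1, Cox7b and Cox8a, general forms as well, fell by 0.43, 0.57 and 0.64 on the log2 scale.

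None of the isoforms of restricted expression was called. Cox7a1, the heart and muscle form of subunit 7a, was at 1.84, 2.28 and 2.23 in the normal livers and 2.42, 2.63 and 5.40 in the tumors. All tumors lay above the normal livers, as in 18.3% of all genes tested, but tumor 3 was far above the other two. The log2 fold change of 0.62 (SE 0.313) was not called (limma adjusted p = 0.17), and it was 0.26 without tumor 3. Cox7a2, the liver form of the same subunit, fell from 116, 131 and 137 to 68.6, 81.0 and 86.2 (log2 fold change -0.71, SE 0.135, limma adjusted p = 0.010).

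Another relative, Cox7a2l, takes part in joining complexes III and IV into supercomplexes. It was at 91.0, 103 and 109 in the normal livers and 100, 95.6 and 97.8 in the tumors, so the groups overlapped. Its log2 fold change of -0.041 (SE 0.113) was above 0 under normexp correction, quantile and spike-in scaling, with the mean of its probes and without normal liver 3. The probes of these 3 relatives are shown because they decide whether such similar genes are told apart.
Cox7a1 probe, first 30 bases: acaacgtcctgtacagactgaccatgacgc
Cox7a2 probe, first 30 bases: ctttggggatcaatatttattgatgtgtat
Cox7a2l probe, first 30 bases: cctttaataatgctgtggctttacgttatg
Over their whole length of 60 bases, the longest run shared by any pair of these probes was 6 bases.

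The restricted isoforms Cox4i2, Cox6b2 and Ndufa4l2 were dim, though well above background in all 6 samples. Cox4i2, the lung form of subunit 4, was at 0.522, 0.551 and 0.581 in the normal livers and 0.451, 0.589 and 0.393 in the tumors (log2 fold change -0.23, SE 0.168, not called). Cox6b2, the testis form of subunit 6b, had a log2 fold change of 0.24 (SE 0.168) and Ndufa4l2, a relative of Ndufa4, one of 0.25 (SE 0.215). Neither was called, and the groups of all 3 genes overlapped. Cox6b1, the general form of subunit 6b, fell from 30.8, 30.8 and 32.7 to 20.3, 23.0 and 23.0 (log2 fold change -0.51).

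The muscle isoforms Cox6a2 and Cox8b and the testis-associated Cox7b2 and Cox8c were not tested. Cox6a2 was at 0.133, 0.0800 and 0.0672 in the normal livers, well above background in none, and at 0.437, 0.232 and 0.107 in the tumors, well above background in 2. Set against the lowest signal that was well above background, its tumor mean was 1.70-fold higher. However, tumor 3 lay below normal liver 1, and tumor 1 was far above the other tumors. Cox8b was well above background on 2 of the normal livers and on none of the tumors, and the same measure was 1.32-fold lower in the tumors. Both measures use means of normalized log2 values. Each mean includes an array of the brighter group that was not well above background, so neither is a strict limit. Cox7b2 and Cox8c did not exceed background clearly in any sample. Of 10 markers of striated muscle, 5 likewise did not in any sample. Of the 4 tested, Actc1, an actin of heart muscle, was called higher and the others were not called. It was at 0.0365, 0.0296 and 0.0277 in the normal livers, well above background in none, and at 0.333, 0.201 and 0.220 in the tumors. Actc1 entered the test through the tumors alone, so its call is not separate evidence of a rise. When probes had to be well above background on all 6 arrays, 3 of the markers were tested and none was called. The summed level of all 10 was 1.51 to 2.14 in the normal livers and 1.61 to 2.37 in the tumors.

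**Figure D4:**
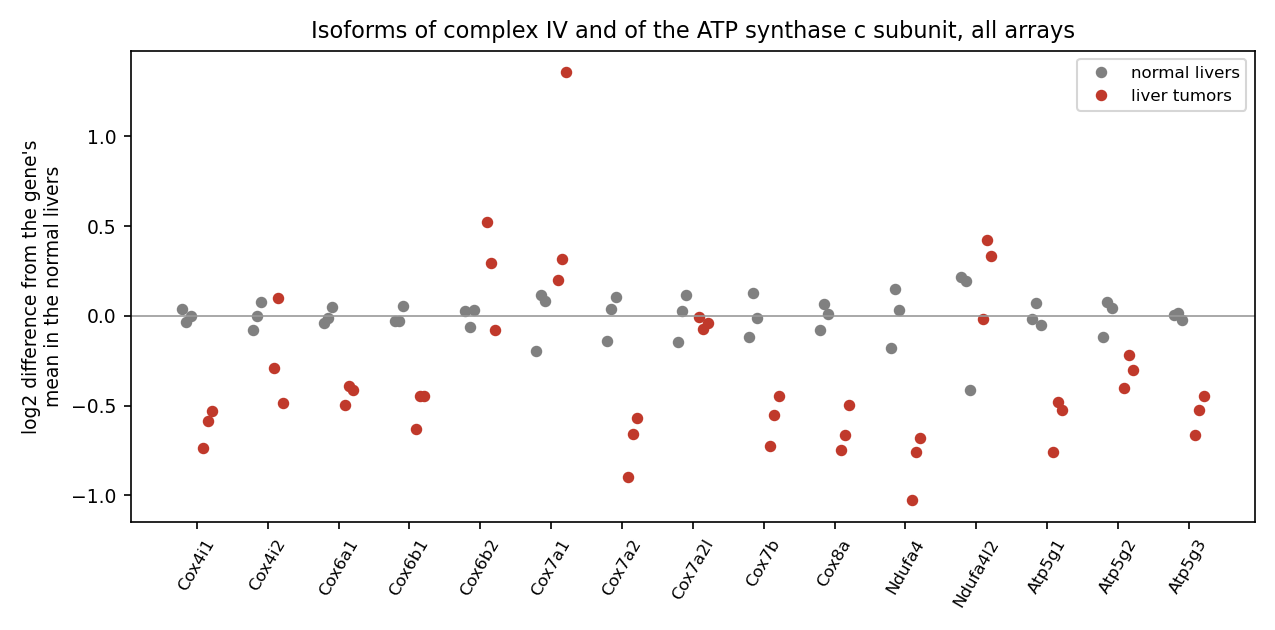
Log2 difference of every array from the gene's own mean in the normal livers, for isoforms of complex IV and the c subunit of ATP synthase; gray points are normal livers and red points liver tumors. The general forms lie below 0 in all tumors, Cox7a2l lies near 0, and Cox7a1 in tumor 3 lies far above the other samples.

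ATP synthase moved most evenly of the complexes. Of its 17 genes 16 fell, with a median of -0.59 and quartiles of -0.61 and -0.55. All 5 subunits of the catalytic F1 head fell (median -0.60), and 11 of 12 of the membrane part and stalk (median -0.58). Atp5a1, the alpha subunit, was at 200, 216 and 208 in the normal livers and 108, 121 and 133 in the tumors (log2 fold change -0.79, SE 0.118, limma adjusted p = 0.0048). Atp5b, the catalytic beta subunit, was at 527, 585 and 560 against 325, 344 and 374 (log2 fold change -0.68, SE 0.111). Atp5pb, subunit b of the peripheral stalk, was at 63.8, 63.7 and 70.3 against 32.3, 41.8 and 45.1 (log2 fold change -0.74, SE 0.153). In all 17 genes every tumor lay below every normal liver. Without normal liver 2, 9 of the 17 were called, and with no filter on dim probes, 2 (5.43% of all genes called lower).

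Atp5g1, Atp5g2 and Atp5g3 encode the identical mature c subunit, which forms the rotating ring. Atp5g1 fell from 375, 398 and 367 to 224, 272 and 264 (log2 fold change -0.59) and Atp5g3 from 417, 420 and 409 to 262, 289 and 304 (log2 fold change -0.55). Atp5g2 was at 222, 255 and 250 against 183, 208 and 196 and was not called (log2 fold change -0.31, SE 0.114, limma adjusted p = 0.081). A second probe of Atp5g2, of nearly equal signal, was called lower (log2 fold change -0.35, limma adjusted p = 0.034). A dimmer probe of Atp5g1 gave a log2 fold change of -0.28 and was not called.

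Assembly factors of complex I help to build it but are not part of it. Of 8 in the Ndufaf series 3 fell, with a median of -0.35. Ndufaf4 was at 8.51, 8.72 and 12.8 in the normal livers and 4.86, 5.42 and 5.70 in the tumors (log2 fold change -0.89, SE 0.185, limma adjusted p = 0.014). Ndufaf1, which acts early in building the membrane arm, was at 17.5, 19.5 and 18.2 against 8.91, 10.9 and 11.5 (log2 fold change -0.82, SE 0.135). Ndufaf3 fell by 0.57 on the log2 scale. The other 5 had log2 fold changes between -0.35 and -0.15. Of the members that are not subunits by name, Dmac2 (log2 fold change -0.66) and Emc8 (-0.55) were called.

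Several probes of one gene mostly gave the same change. Of 30 members with more than 1 tested probe, the log2 fold changes lay within 0.2 of each other in 27, and only those of Cox7a2l differed in sign, with no call. The exceptions were Atp5g1, Ndufv3 (-0.49 to -0.08) and Atp5j (-1.09 to -0.51). By probe, 105 of 136 were called lower and none higher. Many of these genes have processed copies in the genome, and probes that also bind a copy were not sorted out.

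The subunits encoded by mitochondrial DNA moved in the same direction. Of the 13 genes, 9 fell and none rose, with a median of -0.55. ND4L, a membrane subunit of complex I, was at 506, 457 and 438 in the normal livers and 217, 264 and 241 in the tumors (log2 fold change -0.96, SE 0.124, limma adjusted p = 0.0031). CYTB, the cytochrome b of complex III, was at 1139, 1081 and 1034 against 604, 692 and 640 (log2 fold change -0.75). COX1, the catalytic subunit of complex IV, was not called (log2 fold change -0.33, SE 0.106, limma adjusted p = 0.052), nor were COX2, ND1 and ND6. The mitochondrial transcripts come from long precursors, and nuclear copies of mitochondrial DNA exist, so their probes are less certain. Under spike-in scaling 2 of the 13 were called, ND4L and ND5, beside 7.63% of all genes called lower.

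Genes for building the complexes and for carrying electrons between them fell in part. Of 36 tested assembly factors outside the Ndufaf series 17 fell and none rose, with a median of -0.41; without normal liver 2, 5 were called, without normal liver 3, 7, without tumor 1, 9, without tumor 2, 8. The largest fall was that of Sco2, which delivers copper to complex IV, from 124, 107 and 92.9 to 31.9, 46.1 and 44.6 (log2 fold change -1.41, SE 0.189, limma adjusted p = 0.0035). Cycs, cytochrome c, fell from 100, 101 and 104 to 47.5, 64.9 and 71.3 (log2 fold change -0.75). Of 12 genes for cytochrome c and coenzyme Q synthesis 5 fell and none rose, among them Coq8a (-1.52, SE 0.392), whose call was lost without any 1 of the normal livers and with no filter on dim probes, and Coq10a (-1.16, SE 0.157). Without normal liver 1 this count was 2, without normal liver 2 or 3 it was 1, and without tumor 1 or 2 it was 3.

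The tricarboxylic acid cycle, which supplies the electrons, showed a fall in 10 of 13 genes and a rise in none, with a median of -0.57. Cs, citrate synthase, was at 66.1, 76.2 and 70.1 in the normal livers and 24.1, 36.4 and 39.0 in the tumors (log2 fold change -1.12, SE 0.199, limma adjusted p = 0.0083). Idh3a, a subunit of the NAD-dependent isocitrate dehydrogenase, was lower by a similar amount (log2 fold change -1.15, SE 0.191). In both genes the tumors were far below the normal livers. Without normal liver 2 or 3, 5 genes of the cycle were called (10.8% and 13.9% of all genes called lower), and without tumor 2, 6 (14.4%). With no filter on dim probes 2 were called (5.43% of all genes). Under spike-in scaling, 2 of 13 genes of the cycle, 1 of 36 assembly factors and 2 of 12 genes for cytochrome c and coenzyme Q were called lower. Of all genes, 7.63% were called lower under that scaling.

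A few genes of the inner membrane moved against the subunits. Atpif1, the inhibitor protein that binds ATP synthase and blocks its reverse reaction, was at 28.8, 33.4 and 29.6 in the normal livers and 79.2, 72.5 and 77.0 in the tumors. Every tumor was more than 2-fold above every normal liver, and the log2 fold change was 1.32 (SE 0.112, limma adjusted p = 0.00071). It was called in all alternative limma fits, with log2 fold changes between 1.28 and 1.53. RefSeq of GRCm38.p6 lists it as Atpif1, so the rule did not take it; its newer symbol begins with Atp5, and under that symbol it would have been the 1 member called higher and the 1 that changed by 2-fold or more.

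Of the uncoupling proteins, carriers of the inner membrane, Ucp2 and Ucp3 rose as well, while Ucp1 was not tested. Ucp2 went from 0.830, 0.637 and 0.642 to 3.31, 2.40 and 1.94 (log2 fold change 1.84, SE 0.222) and Ucp3 from 1.06, 0.859 and 0.712 to 3.02, 2.20 and 1.82 (log2 fold change 1.41, SE 0.232). In both, tumor 1 was the highest. The ATP and ADP carriers Slc25a4 and Slc25a5 had log2 fold changes of 0.06 and 0.05 and were not called. Slc25a3, the phosphate carrier, was called lower (log2 fold change -0.35, limma adjusted p = 0.045), but the call was lost when any 1 of the 6 arrays was left out.

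**Figure D5:**
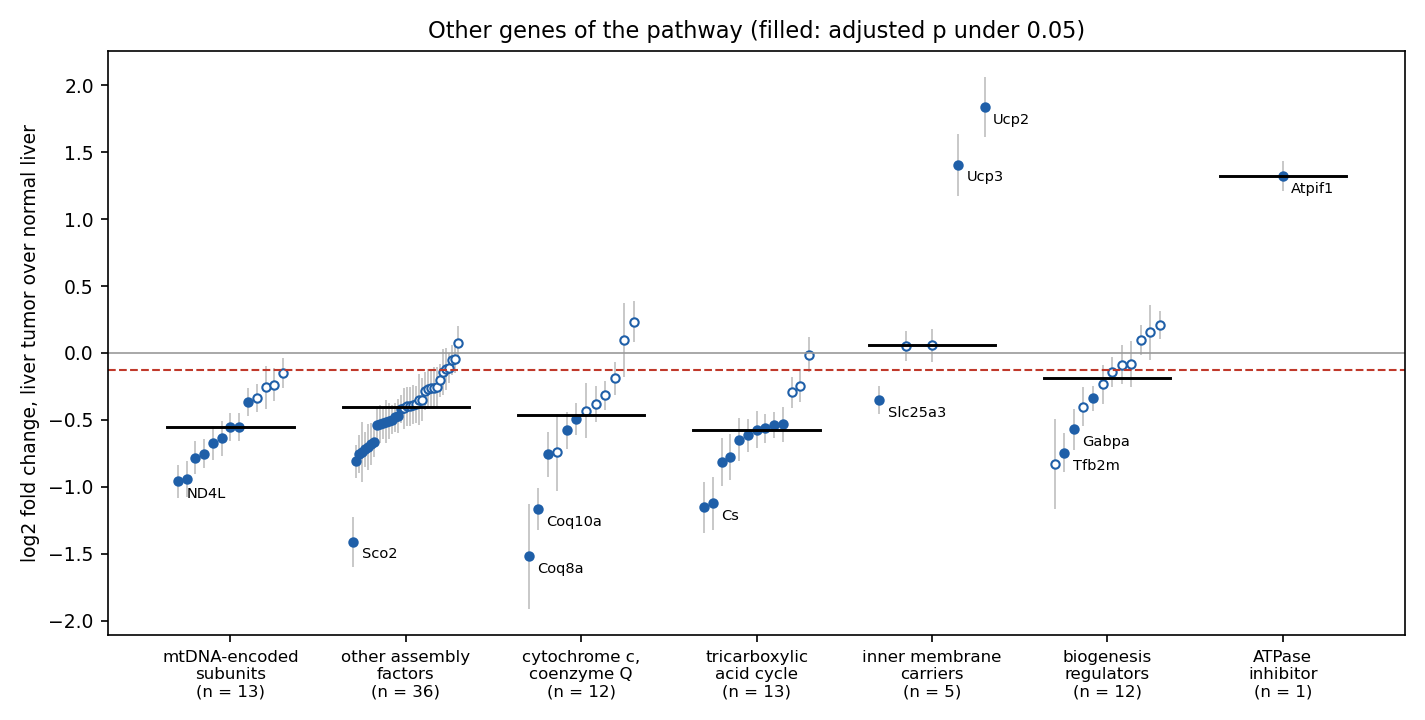
Log2 fold change of liver tumor over normal liver for other genes of the pathway, with standard errors of the limma fit; filled points have an adjusted p under 0.05, black lines are medians and the dashed red line is the median of all genes tested. Filled points above 0 are those of Ucp2, Ucp3 and Atpif1.

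Regulators of mitochondrial gene expression mostly did not pass the test. Of 12 tested, 3 fell and none rose, beside 21.0% of all genes called lower, with a median of -0.19. Under spike-in scaling limma called 0 of the 12 (1 at an unadjusted p under 0.05) and the median was 0.02. Gabpa, the DNA-binding subunit of GABP, was at 2.37, 2.84 and 2.34 in the normal livers and 1.42, 1.85 and 1.83 in the tumors (log2 fold change -0.57, SE 0.153, limma adjusted p = 0.032). Tfb2m and Polrmt, of the mitochondrial transcription machinery, had log2 fold changes of -0.75 (SE 0.147) and -0.34 (SE 0.0959). When 1 array was left out, Polrmt was never called and Gabpa only without tumor 3; the count was 1 without normal liver 2 or 3 or tumor 1 or 2.

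The coactivator Ppargc1a was at 2.12, 2.02 and 1.78 in the normal livers and 2.13, 2.12 and 2.06 in the tumors, so its levels overlapped (log2 fold change 0.10, SE 0.111). The transcription factors Nrf1 (0.15, SE 0.205) and Esrra (-0.23, SE 0.145) and the mitochondrial DNA-binding protein Tfam (-0.14, SE 0.110) also overlapped between groups and were not called. Ppargc1b had a log2 fold change of -0.83 with a wide error (SE 0.337, limma adjusted p = 0.11).

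Both groups expressed hepatocyte genes at a similar summed level. The 11 markers on the array summed to 7911 to 8732 in normal liver and to 8024 to 8432 in tumor, with 2 lower (Cps1 and Pck1, both of periportal hepatocyte metabolism), 1 higher (Apoa1) and a median of -0.11. Markers of other cells differed from list to list, and each sum is weighted to its brightest markers. Macrophage markers summed to 101 to 173 against 59.5 to 97.0, with 5 of 8 lower, 1 higher and a median of -1.10. Stellate cell and fibroblast markers summed to 86.4 to 103 against 29.1 to 48.7, with 4 of 8 lower and 1 higher. Of these 8, 4 lay above 0 and 4 below, with a median of -0.24. Endothelial markers summed to 104 to 118 against 80.7 to 89.4, with 2 of 8 lower and 1 higher. Here too 4 lay above 0 and 4 below, with a median of 0.07. Of all genes, 21.0% were called lower and 13.1% higher. Leaving out any 1 array except normal liver 1 gave 1 endothelial marker lower, and spike-in scaling none lower and 2 higher. All 9 lymphocyte markers, tested or not, summed to 66.3 to 70.2 against 141 to 245. Of the 4 tested, 1 was higher and the median was 0.42. All 6 cholangiocyte markers summed to 2.33 to 2.93 against 1.89 to 2.19, with none of 4 tested called. Without tumor 2, 2 macrophage markers were called lower, without tumor 3 or normal liver 1 or 3, 3 were, and without tumor 1, 7 were. In these fits 13.9% to 18.0% of all genes were called lower. The part of these cells in the fall of the members was not tested.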

How the data were processed

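Feature Extraction output of all 6 arrays was deposited (version 10.7.3.1 by the headers), holding background-subtracted, detrended processed intensity per spot. The authors also deposited a table with the ratio of each signal to its array's 75th percentile. Here the deposited intensities were put on a log2 scale and expressed relative to that percentile, controls included. Spots that were controls or outliers were dropped, replicate spots averaged, and 24885 of 55681 probes entered the fit, having been well above background in all 3 samples of either group; 12 others had an array with outlier spots alone. Between 42.7% and 46.7% of spots per array were well above background, and the small number of arrays limits the precision.

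Limma 3.58.1 in R 4.3.3 (lmFit, then eBayes, two-sided) gave p-values, adjusted by Benjamini-Hochberg over all tested probes, with a threshold of 0.05; the procedure was tested on simulated data. The brightest probe stood for its gene. Folds are ratios of geometric means. Reading, tables and plots used Python 3.11.15 (pandas 2.3.3, scipy 1.17.1, numpy 2.4.6, matplotlib 3.10.9). RefSeq GRCm38.p6 gave names and positions, matched by accession for 27235 probes, by symbol for 3581 and by synonym for 565, while 24300 kept their design name.

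The members and all lists were chosen with earlier results of these data known. Named by rule were, for every complex and for the Ndufaf factors, up to 3 called members with the largest rise and 3 with the largest fall among probes well above background in all 6 samples, plus the Sdh genes, the isoforms, 6 regulators (Ppargc1a, Ppargc1b, Esrra, Nrf1, Gabpa, Tfam) and members whose probes disagreed in sign with a call. Other genes were named after their values were seen. Alternatives were normexp (offset 50), scaling by quantiles or spike-in controls, a filter that was absent or stricter, the deposited ratios, a replicate block, a variance trend, averaging a gene's probes, omission of each array, and the methods' t-test.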

Additional observations from a re-analysis of the deposited data

How the results depend on the processing

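The median of the members stayed below 0 under every alternative run, and none of them called a member higher. The 70 lower calls became 61 with normexp, 52 with quantile normalization and 70 with the deposited ratios. They became 72 with the stricter filter or the mean of a gene's probes and 79 with a variance trend. With no filter, where 34723 genes entered the adjustment, they became 24, with 5.43% of all genes called lower. With spike-in scaling they became 0, with 7.63% of all genes called lower. Leaving out 1 array gave 38 to 70, with 10.8% to 18.0% of all genes called lower. The median of -0.58 moved to -0.37 with both quantile normalization and spike-in scaling, for complex I to -0.37 and -0.38, complex II to -0.45 and -0.44, complex III to -0.41 and -0.41, complex IV to -0.35 and -0.35 and complex V to -0.38 and -0.38. Leaving out 1 array gave -0.62 to -0.50 for the members, -0.63 to -0.52 for complex I, -0.74 to -0.57 for complex II, -0.71 to -0.51 for complex III, -0.61 to -0.48 for complex IV and -0.63 to -0.52 for complex V. Of all calls, 61.6% were lower, and 35.5% with spike-in scaling, which moved the median of all genes from -0.13 to 0.08. That scaling shifts all genes alike, so it cannot move the gap between the members and all genes, which was -0.45 and moved to -0.32 with quantile normalization, -0.39 with normexp and -0.37 without tumor 1. The cause of these shifts was not tested.

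With the methods' t-test, 81 of the 90 members above the expression threshold were lower at an unadjusted p under 0.05 and 70 after Benjamini-Hochberg adjustment in the unpaired form. With the 2-fold criterion added, 0 were lower in the unpaired form before or after adjustment, since no member changed that far. The paired form gave 81 before adjustment, and 0 of all genes after it, so 0 members. Under the replicate block 66 members were called and the median was -0.58. Samples of the same number deviated together with correlations of 0.069, 0.132 and 0.051, and tumor 1 and normal liver 1, tumor 2 and normal liver 2, but not tumor 3 and normal liver 3, were each other's best match, so the numbers were not taken as pairs.

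For the 39 genes named by rule, 509 of 584 alternative values kept direction and call, 65 lost the call and 4 gained it. Cox7a2l changed sign to 0.038 (normexp), 0.19 (quantile), 0.17 (spike-in) and 0.010 (mean of probes), and ranged from -0.11 to 0.018 with 1 array left out, being above 0 without normal liver 3. Tfam changed sign to 0.068 (spike-in). The limits are the small number of arrays, the slide that goes with tissue, and the dependence of changes under 2-fold on array scaling. The untested isoforms of complex IV are near background.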

Other observations

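Subunits made in the cytosol are imported into mitochondria and folded there. Of 13 genes for mitochondrial import, chaperones and outer membrane pores, 4 were called lower and none higher, a share of 30.8% against 21.0% of all genes called lower, with a median log2 fold change of -0.27. Under spike-in scaling limma called 0 of the 13 (0 at an unadjusted p under 0.05) and the median was -0.06. Hspd1, the main chaperonin of the matrix, was at 137, 145 and 160 in the normal livers and 81.7, 98.6 and 91.7 in the tumors (log2 fold change -0.70, SE 0.125, limma adjusted p = 0.0083). Timm23 of the inner membrane translocase (-0.46), Tomm70a of the outer membrane (-0.45) and the pore protein Vdac1 (-0.48) were the others called. The translocase genes Tomm22 (0.11) and Tomm40 (0.02) were not called. The count was 1 with normexp correction, with no filter, without normal liver 2 or 3 and without tumor 1 or 2. In these fits 5.43% to 18.3% of all genes were called lower. It was 2 with quantile normalization and the replicate block, against 17.1% and 17.3% of all genes.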
